A study of Mus musculus with 12 samples.

Results

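H19, Igf2, Igf2r, Grb10, Plagl1, Dlk1, Meg3, Peg3, Peg10 and Mest are imprinted genes that bear on growth, and their RNA is described here in cultured mouse oligodendrocyte precursor cells (OPCs). They were chosen by gene symbol, by a rule that uses no measured value, although earlier results of these data were known. Each symbol matched 1 gene, so the set is 10 of the 55536 genes in the tables. All 10 passed the filter on low counts that left 18995 genes for testing.

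The libraries are bulk total RNA-seq of primary OPCs isolated from mouse pup brain between days 4 and 6 after birth, with 3 replicates in each of 4 groups. All groups share the genotype, a Sox10:Cre driver with the RCE:LoxP(EGFP) reporter, so GFP marks cells in which the Sox10 promoter has been active, and all cultures received PDGFaa and bFGF. Cells were isolated either by sorting for GFP or on CD140a beads, brains were pooled, and the replicates came from different litters. Ctr cells had neither treatment. EZH2i cells had EPZ011989, an inhibitor of the H3K27 methyltransferase EZH2, for 4 days at a dose of 1.5 μM that was refreshed every 48 h. IFNg cells had IFN-γ at 100 ng/ml for 6 h, and IFNg_EZH2i cells had the inhibitor course and then IFN-γ with fresh inhibitor. The labels name EAE as the mouse model, although the cells were cultured from pups.

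An imprinted gene is transcribed from the maternal or the paternal chromosome alone, or mostly, because a DNA methylation mark was set in the egg or the sperm. Several paternally expressed genes promote growth, such as Igf2, a fetal growth factor, while several maternally expressed genes restrain it, such as H19, Igf2r and Grb10. Imprinted genes lie in clusters under a shared control region, and in some clusters Polycomb marks, which EZH2 writes, also hold the silent allele. The counts used here sum both parental alleles, so they do not show which allele was read.

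Library totals ran from 17403896 to 66546017 counts. Markers of OPCs (7 genes) summed to 8111 to 8375 CPM (counts scaled to library size with TMM factors) in Ctr, 6700 to 7100 with EZH2i, 5292 to 7130 with IFN-γ and 4304 to 5199 with both. Astrocyte markers (6 genes) were also present, at 1072 to 2649 CPM in sum, and were highest in replicate 3 of every group. Of 7 microglia markers 6 stayed below 1 CPM in every library, as did 5 of 7 fibroblast markers. Ezh2 itself was not called with the inhibitor (average log2 fold change -0.30, SE 0.12, adjusted p = 0.284 in edgeR's quasi-likelihood test), although a fit with the replicate block called it (-0.31, adjusted p = 0.0131), and its RNA does not measure enzyme activity. Irf1, a classical target of IFN-γ, rose in IFNg against Ctr (log2 fold change 6.31, SE 0.16, adjusted p = 2.98e-10). In bulk libraries such as these, fewer cells of a type and less RNA per cell cannot be told apart.

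The 10 genes covered a wide range of levels. In Ctr, on the per-length TPM scale (mean ± SD, n = 3), Mest was at 91.3 ± 69.9, Peg3 at 19.7 ± 4.56, Meg3 at 14.5 ± 3.09, Dlk1 at 13.2 ± 5.75, Grb10 at 7.06 ± 1.2 and Igf2r at 5.4 ± 0.735. Below them came Peg10 at 2.93 ± 0.670, Plagl1 at 1.65 ± 0.276, H19 at 0.423 ± 0.178 and Igf2 at 0.0347 ± 0.0211. From Mest down to Igf2r the mean ± SD ranges of neighbours in this order overlapped, and from Igf2r downward they did not. The genes were measured in the same libraries, so overlap of these ranges does not show that neighbours were alike. In Ctr, Mest-211 alone was at 31.2, 75 and 55.3 TPM, and Peg3-201, the main Peg3 transcript, at 12.6, 19 and 19 TPM. Mest-204, a processed transcript, was assigned 10.3, 90.8 and 0 TPM, which widens the Mest SD. TPM was not TMM-scaled, so differences between groups were taken from the counts. In IFNg, H19 stood at 7.91 ± 2.57 TPM and Peg10 at 12.9 ± 1.71 TPM, so both moved into the middle of the order.

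**Figure D1:**
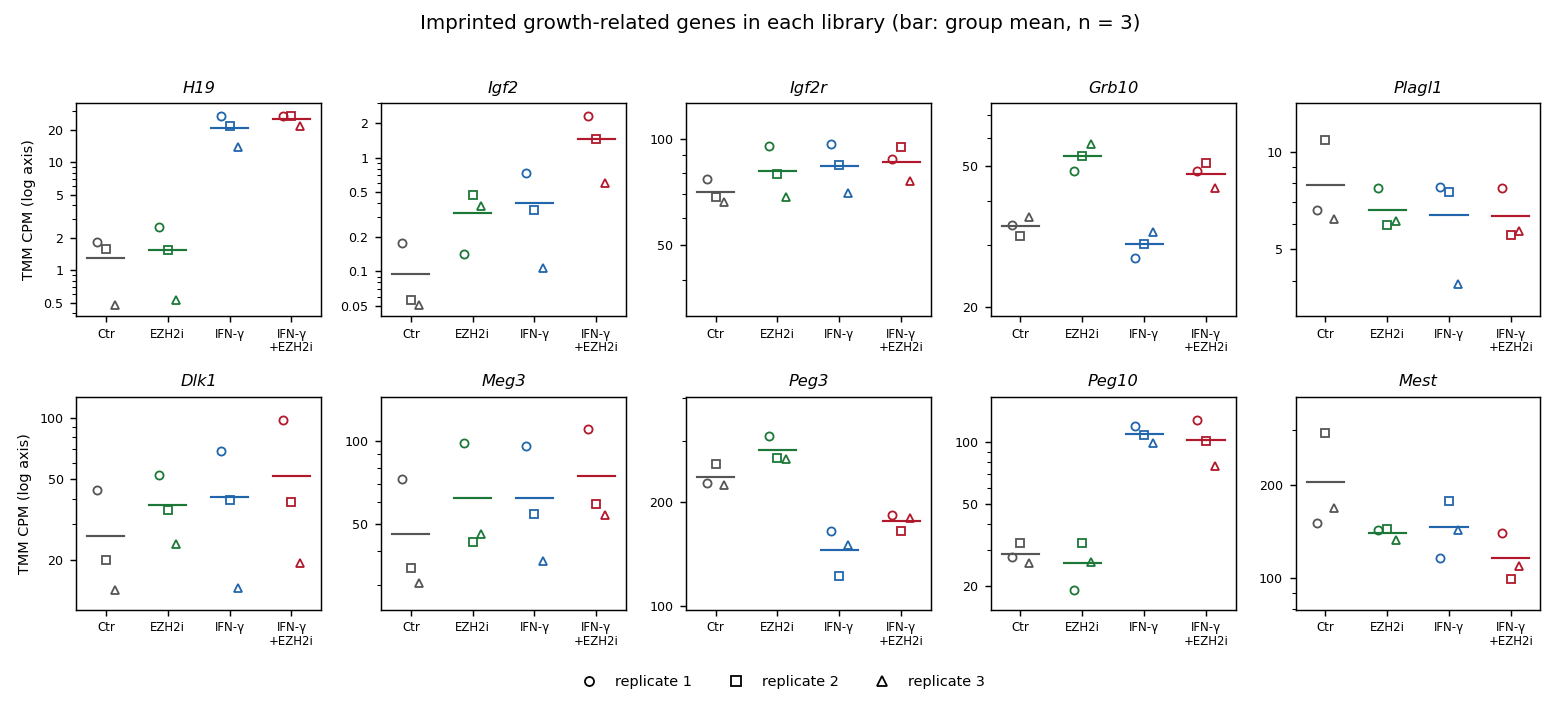
TMM-scaled CPM (log axis, one scale per panel) of each of the 10 genes in the 12 libraries, with the marker shape giving the replicate number and the bar the mean of 3 libraries. H19 and Peg10 sit higher in every library with IFN-γ than in any without it, Peg3 sits lower, and Grb10 sits higher with EZH2i than in the matching group without it.

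With EZH2i, 1 of the 10 genes passed the test, Grb10, which rose by 1.57-fold without IFN-γ and by 1.58-fold with it. Grb10 is an adaptor protein that binds the insulin and IGF1 receptors and dampens their signal, and it is known for maternal expression in most tissues and paternal expression in neurons. The other 9 genes did not pass in either comparison. Marker sums of other cell types moved with the inhibitor too. The 6 oligodendrocyte markers summed to 1892 to 2325 CPM in Ctr and 1112 to 1641 CPM in EZH2i, and to 1765 to 2097 CPM in IFNg and 1074 to 1615 CPM in IFNg_EZH2i, with 1 of 6 called lower in the average. The 5 neuronal markers summed to 34.8 to 48.1 CPM in Ctr and 49.5 to 85.8 CPM in EZH2i, with 3 of 5 called higher in the average. The 5 endothelial markers, 3 of them below 1 CPM in every library, summed to 9.20 to 16.9 CPM in Ctr and 19.5 to 35.35 CPM in EZH2i. They summed to 8.26 to 16.45 CPM in IFNg and 17.1 to 32.5 CPM in IFNg_EZH2i, with 0 called in the average. The 5 pericyte markers summed to 0.745 to 1.53 CPM in Ctr and 1.81 to 2.75 CPM in EZH2i, with 1 called higher in the average. Astrocyte sums overlapped in both comparisons. The part of these cell types in the Grb10 result was not tested. Over all genes tested, 77 of 18995 (0.405%) were called without IFN-γ, all of them higher, and 67 (0.353%) were called with it, 66 of them higher.

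Grb10 (ENSMUSG00000020176) spans chr11:11930508-12038683 on the minus strand of GRCm38. RefSeq lists 2 start sites for it. The 250 bases before each are shown with every CG dinucleotide in capitals (RefSeq, GRCm38.p6, minus strand, 5′ to 3′).
Grb10 upstream start, chr11:12037421-12037670: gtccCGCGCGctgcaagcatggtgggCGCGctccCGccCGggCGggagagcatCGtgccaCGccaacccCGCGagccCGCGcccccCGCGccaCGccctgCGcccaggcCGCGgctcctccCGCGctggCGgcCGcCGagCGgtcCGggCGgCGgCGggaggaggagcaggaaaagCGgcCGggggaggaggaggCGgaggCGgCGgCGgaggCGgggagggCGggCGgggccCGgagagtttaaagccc
Grb10 downstream start, chr11:12027972-12028221: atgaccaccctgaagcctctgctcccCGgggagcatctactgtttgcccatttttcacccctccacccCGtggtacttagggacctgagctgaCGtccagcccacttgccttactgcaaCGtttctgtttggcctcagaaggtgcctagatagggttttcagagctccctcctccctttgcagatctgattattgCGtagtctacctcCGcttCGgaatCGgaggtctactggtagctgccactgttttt
The upstream window holds 40 CG dinucleotides, a count reached by 1.31% of the 32851 promoter windows in the RefSeq table, and the downstream window holds 8, reached by 43%. The transcript Grb10-201 begins near the upstream start, at chr11:12037401. Grb10-207 begins at chr11:12026732, well past the downstream RefSeq start at chr11:12027971. The downstream window is therefore not the sequence just before Grb10-207.

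Without IFN-γ, Grb10 stood at 34.1, 31.8 and 36.0 CPM in Ctr and at 48.6, 53.5 and 58.0 CPM in EZH2i. The groups did not overlap, and the log2 fold change was 0.65 (SE 0.12, adjusted p = 0.0402). With IFN-γ, Grb10 stood at 27.5, 30.2 and 32.7 CPM in IFNg and at 48.4, 51.1 and 43.4 CPM in IFNg_EZH2i. These groups did not overlap either, with a log2 fold change of 0.66 (SE 0.12, adjusted p = 0.041). Blocking on replicate took the genes called in this comparison from 67 to 748, with Grb10 still called (adjusted p = 0.00265). Averaged over both states, 6 libraries with and 6 without the inhibitor, the log2 fold change was 0.66 (SE 0.08, adjusted p = 0.00204), against 422 of 18995 genes called (2.22%). Of those 422 genes, 386 rose and 36 fell. The average stayed called when any 1 of the 12 libraries was left out (adjusted p from 0.00286 to 0.00885), but not when all replicate-2 libraries were (0.279). In that fit no gene at all passed in the average, which holds for the other genes called in the average as well. The separate calls were less firm. Without IFN-γ the call was kept in 1 of 12 such fits, the one without IFNg replicate 1 (adjusted p = 0.047), and reached 0.211 in the others. With IFN-γ it was kept in none of 12 (0.0521 to 0.238), and both calls were also lost with length-scaled TPM, with no filter on low counts and in a fit of the compared samples alone.

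Non-overlap alone is common in 3 against 3 libraries. Between EZH2i and Ctr, 12.7% of all genes tested did not overlap, as did 3 of the 10 genes here (Grb10 and Peg3 higher, Mest lower). Between IFNg_EZH2i and IFNg it was 10.3% of all genes and 2 of the 10 genes (Grb10 and Peg3, both higher).

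The transcript that begins near the CG-rich start, Grb10-201 (first base chr11:12037401), held the largest estimated share of Grb10 TPM in every library. Its share of Grb10 TPM was 46.6% to 63.6% in Ctr, 50.7% to 56.9% in EZH2i, 51.2% to 57.9% in IFNg and 54.8% to 71.4% in IFNg_EZH2i. These ranges overlapped between EZH2i and Ctr and between IFNg_EZH2i and IFNg, and the groups were not separated by this share. Grb10-207 starts further downstream, at chr11:12026732, and its share was 20.9% to 32.3% in Ctr, 28.1% to 29.4% in EZH2i, 22.3% to 30.9% in IFNg and 14.7% to 21.1% in IFNg_EZH2i. The IFNg_EZH2i range lay below those of both IFNg and EZH2i, and the ranges of EZH2i and Ctr overlapped. Salmon divides shared reads between transcripts, so the shares are estimates, and no test was made on them. With length-scaled TPM, a scale that follows such shares, the Grb10 change with IFN-γ present was 0.45 on the log2 scale (adjusted p = 0.555).

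**Figure D2:**
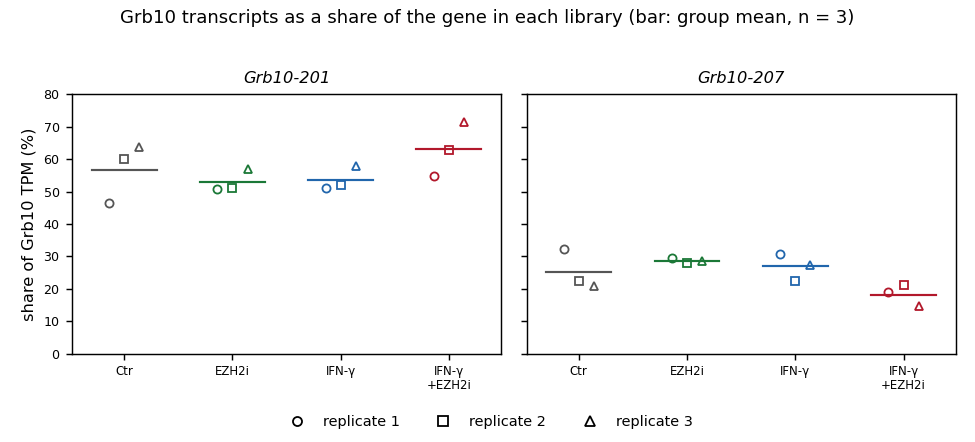
Share of Grb10 TPM (%) held by the transcripts Grb10-201 and Grb10-207 in each of the 12 libraries, with the marker shape giving the replicate number and the bar the mean of 3 libraries. Grb10-201 holds 46.6% to 71.4% in all libraries, and Grb10-207 is lowest in IFNg_EZH2i, at 14.7% to 21.1%.

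Igf2 had few reads in every group. Igf2 (ENSMUSG00000048583, chr7:142650766-142666816, minus strand) encodes insulin-like growth factor 2. It was counted 5, 1 and 3 times in the Ctr libraries, 4, 17 and 25 times in EZH2i, 22, 13 and 7 times in IFNg and 54, 48 and 24 times in IFNg_EZH2i. EZH2i overlapped Ctr and IFNg_EZH2i overlapped IFNg, while all IFNg_EZH2i libraries were above all EZH2i libraries in CPM. The inhibitor contrast averaged 1.89 on the log2 scale (SE 0.56, adjusted p = 0.131) and did not pass, while the replicate block (1.99, adjusted p = 0.0138) and DESeq2 (1.88, adjusted p = 0.0308) called it. For IFN-γ in inhibited cells the log2 fold change was 2.08 (SE 0.70, adjusted p = 0.107), and a fit that blocked on replicate gave 1.74 (adjusted p = 0.0404). With 1 to 54 counts per library, the SE of each Igf2 contrast was 0.56 or more on the log2 scale.

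The remaining inhibitor contrasts did not pass. Peg3 averaged 0.26 on the log2 scale (SE 0.09, adjusted p = 0.205, and 0.0355 with the replicate block) and Mest -0.44 (SE 0.17, adjusted p = 0.287). Igf2r averaged 0.12 (SE 0.11) and H19 0.27 (SE 0.37), with adjusted p of 0.759 and 0.863. Meg3 averaged 0.35 (SE 0.32, adjusted p = 0.765) and was called with the replicate block (0.37, adjusted p = 0.00843). Dlk1 averaged 0.42 (SE 0.45, adjusted p = 0.806). Plagl1, a zinc finger factor, averaged -0.13 (SE 0.21, adjusted p = 0.883) and Peg10 -0.12 (SE 0.15, adjusted p = 0.831). The median over the 10 genes was 0.26, with 7 of them above 0, beside a median of 0 over all genes tested.

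**Figure D3:**
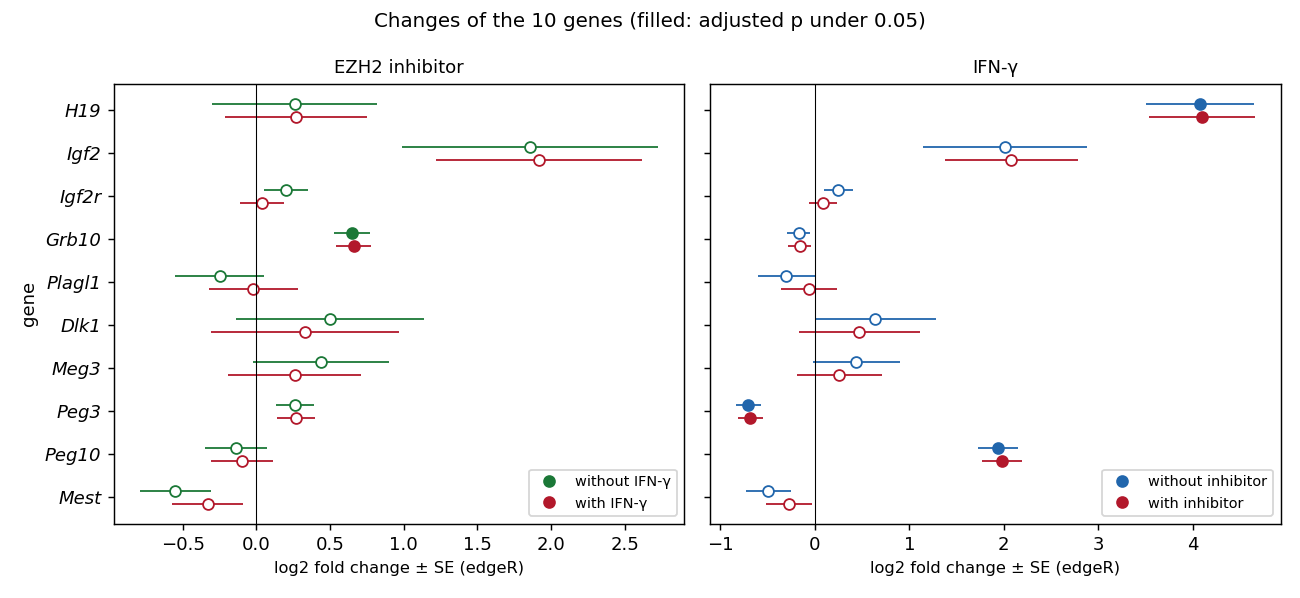
Log2 fold change ± SE of the 10 genes, from edgeR, for the inhibitor without and with IFN-γ (left) and for IFN-γ without and with the inhibitor (right); filled points have an adjusted p under 0.05. Grb10 is filled on the left, and H19, Peg10 and Peg3 are filled on the right.

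With IFN-γ, 3 of the 10 genes passed the test, and they were the same genes with and without the inhibitor. H19 and Peg10 rose and Peg3 fell. Over all genes tested, 1663 of 18995 (8.75%) were called in IFNg against Ctr and 1533 (8.07%) in IFNg_EZH2i against EZH2i, comparisons that share no library. Blocking on replicate raised the counts of called genes to 4032 and 3661.

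H19 is a long noncoding RNA expressed from the maternal allele and is abundant in the embryo. It lies at chr7:142575529-142578143 on the minus strand (ENSMUSG00000000031), in the cluster it shares with Igf2. It stood at 1.84, 1.58 and 0.475 CPM in Ctr (52, 28 and 28 counts) and at 26.8, 21.6 and 13.9 CPM in IFNg. Every IFNg library was above every Ctr library, by 16.8-fold in the fit (log2 fold change 4.07, SE 0.57, adjusted p = 0.00051). In inhibited cells it stood at 2.50, 1.56 and 0.531 CPM without IFN-γ and at 27.0, 26.7 and 21.5 CPM with it. The groups were again apart (log2 fold change 4.09, SE 0.56, adjusted p = 0.000424). Both calls held with any 1 library left out, and neither held without all replicate-2 libraries (adjusted p = 0.0682 and 0.0721). Nearly all of the H19 signal with IFN-γ, 90.4% to 98.1% of its TPM, was assigned to H19-202.

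H19 is also the host of a microRNA, Mir675, whose hairpin lies inside the gene. The mature forms are shown with the seed, bases 2 to 8, in capitals (RefSeq, GRCm38.p6), because H19 is the gene here with the largest fitted change with IFN-γ.
mmu-miR-675-5p, chr7:142577112-142577133: uGGUGCGGaaagggcccacagu
mmu-miR-675-3p, chr7:142577078-142577099: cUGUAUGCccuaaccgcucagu
The Mir675 hairpin had 0 counts in all 12 libraries, and libraries of this kind do not measure mature microRNAs.

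Peg10 is a paternally expressed gene derived from a retrotransposon and needed for the placenta. It lies at chr6:4747306-4760517 on the plus strand (ENSMUSG00000092035). It stood at 27.6, 32.4 and 26.0 CPM in Ctr and at 120.7, 108.9 and 99.5 CPM in IFNg. All IFNg libraries were above all Ctr libraries, with a log2 fold change of 1.94 (3.83-fold, SE 0.21, adjusted p = 7.8e-05). In inhibited cells Peg10 stood at 19.2, 32.3 and 26.1 CPM without IFN-γ and at 127.8, 102.0 and 76.8 CPM with it. The groups did not overlap, with a log2 fold change of 1.98 (SE 0.21, adjusted p = 6.33e-05). Its head-to-head neighbour Sgce, which encodes epsilon-sarcoglycan and is also paternally expressed, had a log2 fold change of -0.01 with IFN-γ (SE 0.12, adjusted p = 0.973).

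Peg3 is a paternally expressed zinc finger gene with roles in growth and maternal care. It lies at chr7:6703892-6730431 on the minus strand (ENSMUSG00000002265). It stood at 227.0, 256.6 and 223.3 CPM in Ctr and at 164.3, 122.0 and 150.1 CPM in IFNg. All IFNg libraries were below all Ctr libraries, and the log2 fold change was -0.70 (SE 0.13, adjusted p = 0.00394). In inhibited cells Peg3 stood at 308.8, 268.4 and 266.6 CPM without IFN-γ and at 182.9, 164.8 and 179.4 CPM with it. This difference was -0.68 on the log2 scale (SE 0.13, adjusted p = 0.00463). The calls held with any 1 library left out, and were lost without all replicate-2 libraries (0.176 and 0.0748) and without all replicate-3 libraries (0.0621 and 0.076). Usp29, which shares the Peg3 promoter region, was lower in all 3 IFNg libraries than in Ctr, but did not pass (-0.78, SE 0.25, adjusted p = 0.0882; -0.79, adjusted p = 0.00382 with the replicate block and 0.0255 in DESeq2).

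Summed markers of other cell types moved with IFN-γ as well. The neuronal markers summed to 686 to 1279 CPM in IFNg and 952 to 1650 CPM in IFNg_EZH2i, above the ranges given for Ctr and EZH2i, of which Tubb3 alone made 669 to 1592 CPM. Their part in the H19, Peg10 and Peg3 results, and that of the lower OPC marker sum, was not tested.

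The other 7 genes did not pass with IFN-γ. In IFNg against Ctr the log2 fold changes were 2.01 for Igf2 (SE 0.87), 0.64 for Dlk1 (SE 0.64), 0.44 for Meg3 (SE 0.46), 0.25 for Igf2r (SE 0.15), -0.17 for Grb10 (SE 0.12), -0.30 for Plagl1 (SE 0.30) and -0.49 for Mest (SE 0.24). Their adjusted p ranged from 0.231 for Igf2 to 0.702 for Meg3. When replicate was blocked, Meg3 was called at the same log2 fold change, 0.44 (adjusted p = 0.0118). In IFNg_EZH2i against EZH2i, Dlk1 stood at 0.47 (SE 0.64), Meg3 at 0.26 (SE 0.45), Igf2r at 0.09 (SE 0.15), Plagl1 at -0.06 (SE 0.30), Grb10 at -0.16 (SE 0.12) and Mest at -0.27 (SE 0.24).

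The test of whether the inhibitor acted differently with IFN-γ called 0 of 18995 genes (0%), with 127 at an unadjusted p under 0.05 in edgeR and 0 called, 135 unadjusted, in DESeq2. The interaction on the log2 scale was 0.01 for Grb10 (SE 0.17), 0.01 for H19 (SE 0.77), 0.04 for Peg10 (SE 0.29) and 0.02 for Peg3 (SE 0.18). Each had an adjusted p of 1.

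Dlk1 and Meg3 lie in 1 cluster on chr12 and showed a wide spread between replicates. Dlk1 (chr12:109452823-109463336, plus strand, ENSMUSG00000040856) is a paternally expressed transmembrane protein related to Notch ligands, and Meg3 (chr12:109541001-109571726, plus strand, ENSMUSG00000021268) is a maternally expressed long noncoding RNA. Dlk1 stood at 44.4, 20.0 and 14.3 CPM in Ctr replicates 1, 2 and 3, at 52.2, 35.1 and 24.1 CPM in EZH2i, at 68.7, 39.4 and 14.6 CPM in IFNg and at 97.0, 38.4 and 19.3 CPM in IFNg_EZH2i. Replicate 1 was the highest library in each group and the groups overlapped. Meg3 stood at 72.7, 34.8 and 30.7 CPM in Ctr, 98.0, 43.0 and 46.1 CPM in EZH2i, 95.9, 54.4 and 36.8 CPM in IFNg and 110.8, 59.3 and 54.0 CPM in IFNg_EZH2i. Here too replicate 1 was highest in each group. For both genes each replicate number was higher with either treatment than in Ctr, though Dlk1 replicate 3 barely so with IFN-γ. A fit that blocked on replicate called Meg3 for EZH2i against Ctr (adjusted p = 0.0413) and in the inhibitor average (0.00843). It also called Meg3 for IFNg against Ctr (0.0118), but not for IFNg_EZH2i against IFNg or against EZH2i. Dlk1 was called by that fit in no comparison. Within groups the log2 levels of Dlk1 and Meg3 correlated at r = 0.90 over the 12 libraries, which share a medium. A high r was not particular to this cluster. Members on different chromosomes ranged from -0.67 (H19 and Grb10) to 0.85 (H19 and Igf2r), with Igf2r and Dlk1 at 0.80. Within groups Dlk1 correlated with Nfe2l1 at 0.985 and Meg3 with C1ql2 at 0.984, the genes most like them over the 12 libraries. The labels do not say what libraries of the same number share. Astrocyte marker sums differed by replicate as well, with replicate 3 highest in each group, and their part in these levels was not tested.

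Rtl1, Rian and Mirg of the same cluster were also highest in replicate 1 of each group, as were the listed neighbours Begain and Dio3. Wdr25, another listed neighbour, was highest in replicate 1 of EZH2i (7.47 CPM) and of IFNg_EZH2i (10.4 CPM). Its highest library was replicate 3 in Ctr (6.77 CPM, beside 6.70 in replicate 1) and replicate 2 in IFNg (9.72 CPM, beside 9.62 in replicate 1). Rtl1, a retrotransposon-derived gene read from the paternal allele, stood at 19.6 CPM in Ctr replicate 1 and at 5.65 and 3.49 CPM in the other Ctr libraries. It stood at 31.8, 13.3 and 7.41 CPM in EZH2i, at 43.0, 31.5 and 10.2 CPM in IFNg and at 64.1, 40.1 and 21.4 CPM in IFNg_EZH2i, so each replicate number was higher with either treatment than in Ctr, while the groups of EZH2i and Ctr, and of IFNg and Ctr, overlapped. Rtl1, Wdr25, Begain and Dio3 are named here after their values were seen. Mirg, a maternally expressed host of microRNAs, stood at 5.99, 2.31 and 1.27 CPM in Ctr. Rian, the host of small nucleolar RNAs, stood at 55.7, 24.4 and 36.1 CPM in Ctr and averaged 0.62 with the inhibitor (SE 0.21, adjusted p = 0.194, and 0.00762 with the replicate block). With IFN-γ its log2 fold change was 0.67 (SE 0.29, adjusted p = 0.231; 0.70, adjusted p = 0.0153 with the replicate block), and that of Mirg was 1.16 (SE 0.69, adjusted p = 0.424; 1.18, adjusted p = 0.00101 with the block). Mirg averaged 0.26 with the inhibitor (SE 0.48, adjusted p = 0.902).

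**Figure D4:**
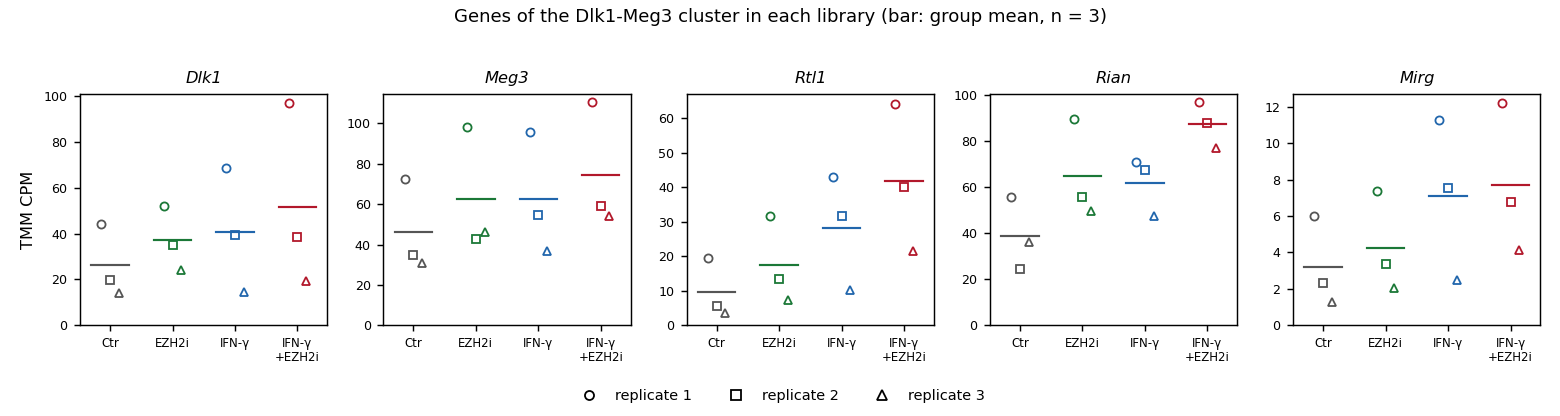
TMM-scaled CPM (linear axis from 0) of Dlk1, Meg3, Rtl1, Rian and Mirg in each of the 12 libraries, with the marker shape giving the replicate number and the bar the mean of 3 libraries. Replicate 1 (circles) is highest in every group for all 5 genes, for example at 97.0 CPM for Dlk1 in IFNg_EZH2i beside 38.4 and 19.3 CPM.

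Igf2r, Mest and Plagl1 completed the set. Igf2r (chr17:12682406-12769664, minus strand, ENSMUSG00000023830), the receptor that carries IGF2 to lysosomes, ran from 66.3 to 97.2 CPM over all 12 libraries. Airn, a noncoding RNA read on the opposite strand of Igf2r, averaged -0.02 with the inhibitor (SE 0.19, adjusted p = 0.983) and stood at -0.17 with IFN-γ (SE 0.27, adjusted p = 0.822). Mest (chr6:30723547-30748465, plus strand, ENSMUSG00000051855), a paternally expressed gene of mesoderm, ran from 150.1 to 294.2 CPM in Ctr and from 132.8 to 144.0 CPM in EZH2i. The 2 groups did not overlap, and Ctr replicate 2, the shallowest library, was the highest of all. Mest overlaps Copg2 on the opposite strand, and the strand setting of the quantification is not given in the sources used here. Plagl1 (chr10:13060504-13131694, plus strand, ENSMUSG00000019817) ran from 3.90 to 10.8 CPM and its groups overlapped in every comparison.

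The promoter windows of the 10 genes were searched for the IFN-γ-activated element TTCNNNGAA and for the core of the interferon-stimulated response element, on both strands of the 250 bases before each start. RefSeq gave 15 windows for 8 of the 10 genes, and none for H19 or Peg10. No window held either motif, beside 7.02% and 2.98% of the 32851 windows in the table. With 15 windows, some of which overlap, this count is too small to tell these genes from the other windows. H19 and Peg10, which rose with IFN-γ, had no window, so the search does not bear on them.

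Of 24 listed genes of the wider IGF pathway 19 were tested, and with the inhibitor, averaged over IFN-γ, 2 rose and 0 fell, beside 2.22% called over all genes tested. With the replicate block 6 were called, beside 12.2% of all genes. In the main fit the median log2 fold change of the 19 was 0.22, beside 0 over all genes tested. Both genes that rose in the main fit encode RNA-binding proteins that bind Igf2 RNA. Igf2bp3 rose from 1.88 to 4.63 CPM in Ctr to 17.5 to 26.8 CPM in EZH2i (average log2 fold change 2.83, SE 0.26, adjusted p = 0.000229), and Igf2bp2 averaged 0.97 (SE 0.16, adjusted p = 0.00894). The receptors Igf1r and Insr averaged 0.20 (SE 0.10, adjusted p = 0.439) and 0.14 (SE 0.09, adjusted p = 0.629), and the ligand Igf1 averaged 0.29 (SE 0.46, adjusted p = 0.881). With IFN-γ, 3 of the 19 rose, beside 8.75% called over all genes tested (with the replicate block 10 were called, beside 21.2%). Igf1r was 1 of them, at 58.9 to 59.5 CPM in Ctr and 75.9 to 100.3 CPM in IFNg (log2 fold change 0.52, SE 0.14, adjusted p = 0.0366), a call that was lost in 7 of 12 fits with 1 library left out, with RLE factors and with the compared samples alone. Insr stood at 0.07 (SE 0.13, adjusted p = 0.865) and Igf1 at 1.72 (SE 0.67, adjusted p = 0.172; 1.50, adjusted p = 0.0231 with the block).

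Of 14 Notch pathway genes, to which Dlk1 is related, 1 rose with the inhibitor on average, beside 2.22% called over all genes tested. It was Jag1, a Notch ligand, at 91.0 to 107.1 CPM in Ctr and 148.8 to 163.3 CPM in EZH2i (average log2 fold change 0.56, SE 0.09, adjusted p = 0.00814). The call was lost with length-scaled TPM (adjusted p = 0.132). With the replicate block 5 of the 14 were called in the average, beside 12.2% of all genes. Among 26 tested neighbours of the 10 genes (of 38 listed), 1 rose with the inhibitor on average, beside the same 2.22%. It was Klf14, the maternally expressed gene of the Mest cluster, at 0.153 to 0.339 CPM in Ctr and 0.822 to 2.68 CPM in EZH2i (average log2 fold change 2.83, SE 0.34, adjusted p = 0.00123). No listed neighbour fell, and over all genes tested only 36 of the 422 called in the average fell. With the replicate block 8 of the 26 neighbours were called, beside 12.2% of all genes.

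Of 37 listed imprinted genes outside these clusters, 33 were tested, 5 rose and 0 fell with the inhibitor on average, and 28 did not pass, beside 2.22% called over all genes tested. With the replicate block 11 of the 33 were called, beside 12.2% of all genes. Whether this list differs from the others was not tested. Zdbf2, a paternally expressed gene of growth and feeding, stood at 4.57 to 6.43 CPM in Ctr and 16.2 to 18.6 CPM in EZH2i (average log2 fold change 1.52, SE 0.12, adjusted p = 9.66e-05). Magel2 averaged 3.15 (SE 0.43, adjusted p = 0.00268) and its neighbour Ndn 0.54 (SE 0.08, adjusted p = 0.00595), both from the Prader-Willi cluster. The potassium channel gene Kcnk9 averaged 3.4 (SE 0.44, adjusted p = 0.00205) from at most 0.113 CPM in Ctr, and Sfmbt2, a Polycomb-related gene, averaged 0.99 (SE 0.17, adjusted p = 0.0105). Cdkn1c, a maternally expressed inhibitor of the cell cycle, averaged 0.52 (SE 0.47, adjusted p = 0.762; 0.50, adjusted p = 0.0136 with the replicate block), and stood at 0.14 with IFN-γ (SE 0.67, adjusted p = 0.952). The median over the 33 genes was 0.08, beside 0 over all genes tested. Usp29 averaged 0.64 with the inhibitor (SE 0.18, adjusted p = 0.103), and was called by DESeq2 (0.0145) and with the replicate block (0.00289). Sgce averaged 0.19 (SE 0.08, adjusted p = 0.395).

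Of 13 tested genes that set or keep imprints, such as DNA methyltransferases, 0 passed with the inhibitor on average in edgeR, beside 2.22% of all genes tested. Without IFN-γ 0 passed (0.405% of all genes) and with it 0 (0.353%). With the replicate block 3 passed in the average, beside 12.2% of all genes. In IFNg against Ctr 1 of the 13 rose and 1 fell, beside 8.75% called over all genes tested. With the replicate block 5 were called in that comparison, beside 21.2%.

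The genes most like each of the 10 were found by Pearson r of log2 CPM over the 12 libraries. Zdbf2 was most like Grb10 (r = 0.959), followed by Plxnd1 and Fuca1 (0.948 and 0.944). For H19 they were Olfml3, 1110038F14Rik and Kars (0.992, 0.991 and 0.991), for Peg10 Rap1gds1, Noc4l and Tapbp (0.986, 0.985 and 0.98), and for Peg3 Klhl3, Fgf11 and Gpr153 (0.972, 0.972 and 0.97). For Meg3 they were C1ql2, Hmga1 and Epb41l1 (0.967, 0.965 and 0.961) and for Dlk1 Nfe2l1, Gse1 and 1700017B05Rik (0.965, 0.959 and 0.958). Igf2r was most like Xbp1, Tbc1d1 and Otud1 (0.95, 0.945 and 0.944), Mest like Eme1, B130055M24Rik and Papln (0.926, 0.901 and 0.897), and Plagl1 like Rpusd1, St5 and Anapc11 (0.87, 0.857 and 0.85). These are the highest of 14680 genes compared over 12 libraries that share treatments, so they describe likeness alone. Igf2 was below the mean of 1 CPM set for this comparison.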

How the data were processed

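Paired reads of stranded total RNA libraries were quantified by the authors with Salmon 0.8.2, per the labels, and the deposited estimated counts and TPM per transcript were used as they stand. The strand setting is not given in the sources used here. STAR and DESeq2 are also named by the submitters' processing notes. The tables of the authors' own DESeq2 comparisons (log2 fold changes, p-values, adjusted p-values and mean levels) were not used. TPM values, as deposited, were normalised by the authors for effective length and library size, and the effective lengths served only for length-scaled TPM.

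All 141862 transcripts matched the GENCODE annotation of GRCm38. Transcript counts were added up by gene, then rounded to whole numbers. Total counts were 17403896 to 66546017 per library, with a median of 33625880, which limits precision for genes of few counts such as Igf2. Counts were tested in R 4.3.3 with edgeR 4.0.16 (TMM factors, filterByExpr, quasi-likelihood test, 1 fit of 12 libraries, group as the only term), and p-values were adjusted by the Benjamini-Hochberg method over 18995 genes at a threshold of 0.05. All adjusted p in the text come from this fit unless another is named. Other settings tried were length-scaled TPM, DESeq2 1.42.0, a term for replicate, RLE in place of TMM, either no filter or a mean of at least 1 CPM, fits of the compared groups alone, a fold threshold of 1 on the log2 scale, removal of mitochondrial and rRNA genes, and omission of each library in turn. The scripts were tested on simulated data. The SE is the log2 fold change over the root of the F statistic.

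The members and lists were chosen with earlier results of these data known. Named genes are the members, the listed genes called with the inhibitor (at most 5 per list), 9 receptors and neighbours whatever their values, and the 3 genes most like each member by Pearson r of log2(CPM + 0.5). Replicates came from different litters per the labels. Chi-square between replicates of a group was 32.05 to 170.9 per gene, far above sampling noise.

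Replicates are numbered 1, 2 and 3 in every group. Departures of same-numbered libraries from their group means correlated, over the genes tested, at 0.638 to 0.748 between IFNg and IFNg_EZH2i, 0.605 to 0.686 between EZH2i and IFNg_EZH2i and 0.105 to 0.652 between Ctr and IFNg, so the numbers were taken to pair these groups, the last by a narrow margin. Between Ctr and EZH2i they were 0.0929 to 0.608, and 0.122 to 0.690 over the 14681 genes with a mean of at least 1 CPM. The lowest value was that of replicate 2 in both gene sets, so that pairing is uncertain. Between Ctr and IFNg_EZH2i they were 0.0315 to 0.586. The main fit, with group as its only term, uses no pairing. The replicate block is 1 fit of all 12 libraries, so its values for EZH2i against Ctr and for the average also pair Ctr with EZH2i.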

Additional observations from a re-analysis of the deposited data

How the results depend on the processing

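With 1 library left out, 919 recomputed values kept their direction and side of the threshold, 57 turned, 30 lost a call and 2 gained one. With 1 library left out in turn, the share of tested genes that was called ranged from 0.0565% to 0.425% for EZH2i against Ctr, from 0.0514% to 0.335% for IFNg_EZH2i against IFNg, from 1.25% to 2.13% for the average, from 5.69% to 8.76% for IFNg against Ctr, from 5.54% to 8.01% for IFNg_EZH2i against EZH2i, and stayed at 0% for the interaction. The members called were 0 to 1, 0 to 0, 1 to 1, 3 to 3, 3 to 3 and 0 to 0. Directions that turned in these fits belonged to values that had not passed. For EZH2i against Ctr they were H19 (-0.28 to 0.71), Meg3 (-0.05 to 0.94), Peg10 (-0.33 to 0.03) and Plagl1 (-0.40 to 0.04). For IFNg_EZH2i against IFNg they were Dlk1 (-0.51 to 0.93), Igf2r (-0.07 to 0.15), Meg3 (-0.14 to 0.71), Peg10 (-0.30 to 0.07) and Plagl1 (-0.28 to 0.15). For the average they were Airn (-0.17 to 0.06), Dlk1 (-0.01 to 0.73), H19 (-0.01 to 0.49), Mirg (-0.06 to 0.70) and Plagl1 (-0.26 to 0.01). For IFNg against Ctr they were Cdkn1c (-0.26 to 0.66), Insr (-0.02 to 0.19), Meg3 (-0.01 to 0.92) and Sgce (-0.09 to 0.05). For IFNg_EZH2i against EZH2i they were Dlk1 (-0.38 to 0.86), Igf2r (-0.02 to 0.22), Meg3 (-0.15 to 0.74) and Plagl1 (-0.25 to 0.06). For the interaction they were Grb10 (-0.05 to 0.07), H19 (-0.44 to 0.56), Peg10 (-0.16 to 0.23) and Peg3 (-0.10 to 0.11).

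In the replicate block fit, with the number as a term, the calls were 771 genes (4.06%, 2 members) for EZH2i against Ctr, 748 (3.94%) for IFNg_EZH2i against IFNg, 2317 (12.2%, 4 members) for the average, 4032 (21.2%) for IFNg against Ctr and 3661 (19.3%) for IFNg_EZH2i against EZH2i, with 0 for the interaction (545 at an unadjusted p under 0.05). Members called in IFNg against Ctr and in IFNg_EZH2i against EZH2i numbered 4 each. Meg3 was called for EZH2i against Ctr (adjusted p = 0.0413), and Igf2 (0.0138), Peg3 (0.0355) and Meg3 (0.00843) in the average. Plagl1 turned to 0.03 for IFNg_EZH2i against IFNg. Libraries correlated best with their own number in 33 of 36 library and group pairs.

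For EZH2i against Ctr, DESeq2 called 331 genes (1.74% of those tested), no filter 0.378%, length-scaled TPM 0.262% and the compared samples alone 0.186%, and members called fell to 0 with no filter, length-scaled TPM, the compared samples alone and an absolute log2 fold change above 1. For IFNg_EZH2i against IFNg, DESeq2 called 281 genes (1.48%), length-scaled TPM 0.157% and the compared samples alone 0.0389%, with 0 members under no filter, length-scaled TPM, the compared samples alone and the same fold threshold. For the average, DESeq2 called 876 genes (4.61%, 2 members, Igf2 at 0.0308 besides Grb10), length-scaled TPM 1.47% and the fold threshold 1.27% (0 members). That threshold left 5.54% for IFNg against Ctr and 5.28% for IFNg_EZH2i against EZH2i. DESeq2 called Igf2 for IFNg_EZH2i against EZH2i (0.0452). Length-scaled TPM turned Plagl1 (0.18) and Sgce (0.01) for IFNg against Ctr and Grb10 in the interaction (-0.26), and no filter turned Sgce (0.01) and Grb10 in the interaction (-0.01). The cause was not tested.

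Leaving out all libraries of 1 replicate number was chosen after seeing the data. Without replicate 1 the genes called were 0%, 0% and 0.988% for EZH2i against Ctr, IFNg_EZH2i against IFNg and the average, without replicate 3 they were 0.0213%, 0.016% and 0.838%, and without replicate 2 they were 0% in each, with 0 members called in the first 2 comparisons under all 3 settings and in the average without replicate 2. For IFNg against Ctr and IFNg_EZH2i against EZH2i they were 5.06% and 4.31% without replicate 3, and 2.82% and 2.86% without replicate 2, with 1 member each. Without replicate 1, Peg10 turned to 0.01 for EZH2i against Ctr, Dlk1 to -0.05 for IFNg_EZH2i against EZH2i, and Grb10 to -0.14 and Peg10 to -0.24 in the interaction. Without replicate 2, Plagl1 turned to 0.10, 0.20 and 0.15 for EZH2i against Ctr, IFNg_EZH2i against IFNg and the average, Airn to 0.13 in the average, Igf2r to -0.04 for IFNg_EZH2i against IFNg and -0.01 for IFNg_EZH2i against EZH2i, Sgce to 0.09 for IFNg against Ctr, and H19 to -0.13 and Peg3 to -0.15 in the interaction. Without replicate 3, H19 turned to -0.08 in the interaction. In the average, Ndn was not called without replicate 1 (0.0826), nor were Jag1 (0.0627) and Sfmbt2 (0.0677) without replicate 3. These fits have fewer samples than the main fit, and the part of this in their lower counts was not tested.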
